A study of Mus musculus with 16 samples.

Results

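The response of mouse two-cell embryos to α-amanitin (α-amantin as the labels spell it) was measured in embryos called BCB, in which the maternal pronucleus came from the C3H strain and the paternal pronucleus and the ooplasm from B6. The comparison used 4 arrays of α-amanitin-treated BCB embryos and 4 arrays of untreated BCB embryos, 8 of the 16 arrays of the series, and all 45037 probe sets that are not array controls. The other 8 arrays held BBB embryos, in which both pronuclei and the ooplasm were B6, 4 untreated and 4 treated with α-amanitin; every embryo of the series thus had B6 ooplasm and a B6 paternal pronucleus. Total RNA came from a Picopure extraction, its label was biotin from an ENZO kit, and each array gave 1 linear intensity per probe set, a group of probes against the same transcript. The sources used here give neither the dose and duration of the treatment nor the number of embryos per sample, and they do not state that the 4 samples of a group came from separate collections, so each p-value below measures the spread between these samples, which may be technical. These were bulk samples, in which fewer cells of a type and less RNA per cell cannot be told apart.

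α-Amanitin is a mushroom toxin that binds RNA polymerase II and blocks the movement of the enzyme along DNA. A fertilised mouse egg starts with messenger RNA stored by the oocyte, and at the two-cell stage the embryo begins to transcribe its own genome on a large scale while stored maternal messages are degraded. In embryos held in the toxin, transcripts that need new synthesis are not made, whereas stored transcripts can still be read, polyadenylated or degraded. The comparison therefore asks which transcripts of the BCB embryo depend on transcription by the embryo.

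The 8 BCB arrays held the transcripts of eggs and early embryos. Of the 13 oocyte and embryo markers measured, each had a mean intensity over 100 on the untreated arrays, among them Oosp1, an oocyte secreted protein, at 5698 ± 80.5 (SD, n = 4) and Zfp352, a transcript of the two-cell stage, at 4255 ± 228. Between arrays, log2 intensities over genes, which are no independent replicates, had correlations of 0.990 to 0.992 within the untreated group, 0.979 to 0.984 within the treated group and 0.773 to 0.794 across the groups. The control probe sets moved with the treatment. Their mean log2 intensity was higher on the treated arrays by 0.79 for the 9 hybridization controls, which are added before hybridization, by 1.73 for 12 poly-A controls, which are RNAs added to the sample before labelling, and by 1.62 for 18S ribosomal RNA, each with an exact two-sided permutation p of 0.0286 (adjusted 0.0357 over 10 measures), the smallest that 4 arrays against 4 can give. The deposited arrays all had the same trimmed mean, 150, so intensities give the share of a transcript in the sample rather than its amount per embryo. For this reason each rise below is given with its log2 change after the arrays were scaled to the poly-A controls, called the poly-A scale. Lists are given on the scale of the hybridization controls as well. A higher level per embryo cannot be told apart from a higher share on the deposited scale alone. The poly-A scale gives amounts per embryo only if the samples held equal numbers of embryos and equal added control RNA. The sources used here do not state this, so that scale does not settle the amount per embryo either.

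**Figure D1:**
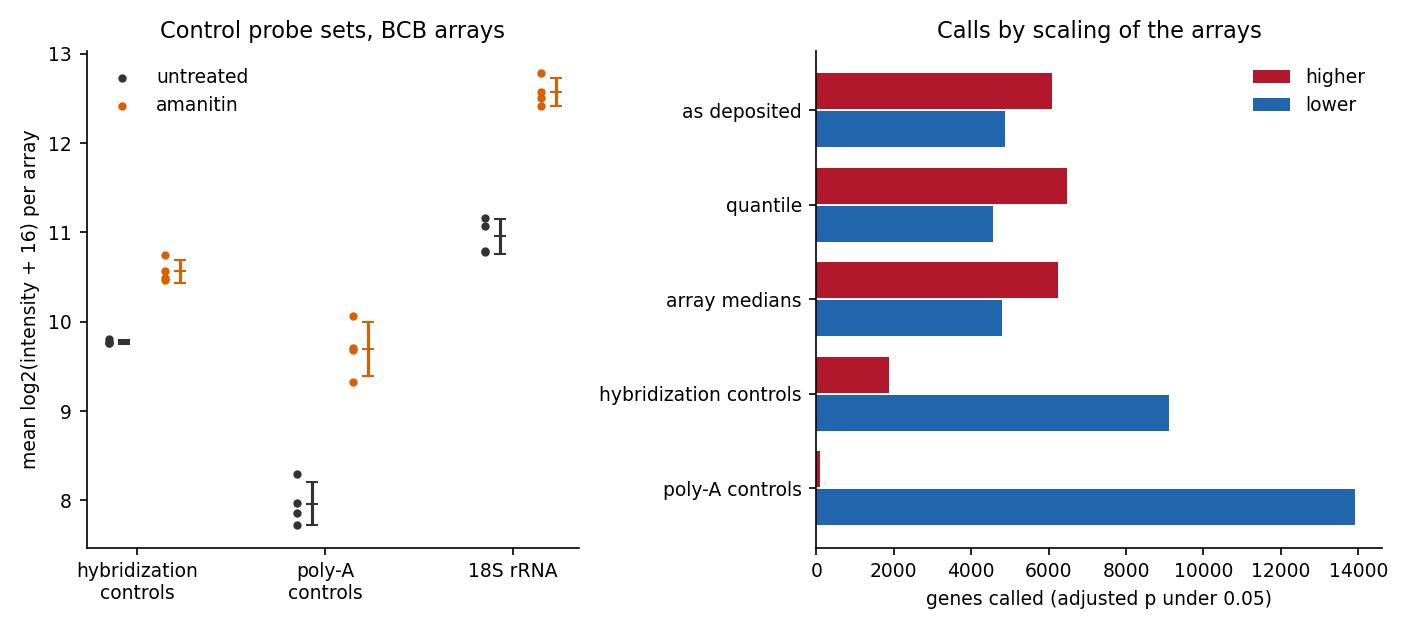
Left, mean log2(intensity + 16) of the control probe sets on each BCB array (points), with the mean and SD of each group of 4; right, the number of genes called higher or lower with amanitin as deposited and under 4 other scalings. All 4 treated points lie above the 4 untreated points for each control, and genes called higher number 6096 as deposited but 100 with arrays scaled to the poly-A controls.

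With amanitin, 4877 of the 15274 genes tested (31.9%) fell and 6096 (39.9%) rose, at an adjusted p under 0.05 in limma's moderated test with a Benjamini-Hochberg adjustment, so 71.8% passed in either direction and 4301 did not pass. The falls were the larger changes. At least 2-fold falls numbered 3219 (21.1%) and at least 2-fold rises 2468 (16.2%); at least 8-fold falls numbered 719 and at least 8-fold rises 7, and 61 genes fell at least 32-fold. The 4 treated arrays all lay below the 4 untreated arrays for 4544 genes (29.7%) and all above them for 5437 (35.6%). All 4877 falls were also called lower on both control scales. Those scales lower the log2 change of every gene by the same amount, 0.79 and 1.73. A fall could therefore only grow there, and this count is no separate check. The rises depended on the scale: of the 6096, 1879 (30.8%) were still called higher on the scale of the hybridization controls and 475 were called lower there, and on the poly-A scale 100 (1.64%) were called higher and 4742 lower. In total, 1879 genes were called higher and 9112 lower on the first control scale, and 100 and 13919 on the second. Over all genes the median change was 0.17 on the log2 scale as deposited, −0.62 on the scale of the hybridization controls and −1.56 on the poly-A scale.

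**Figure D2:**
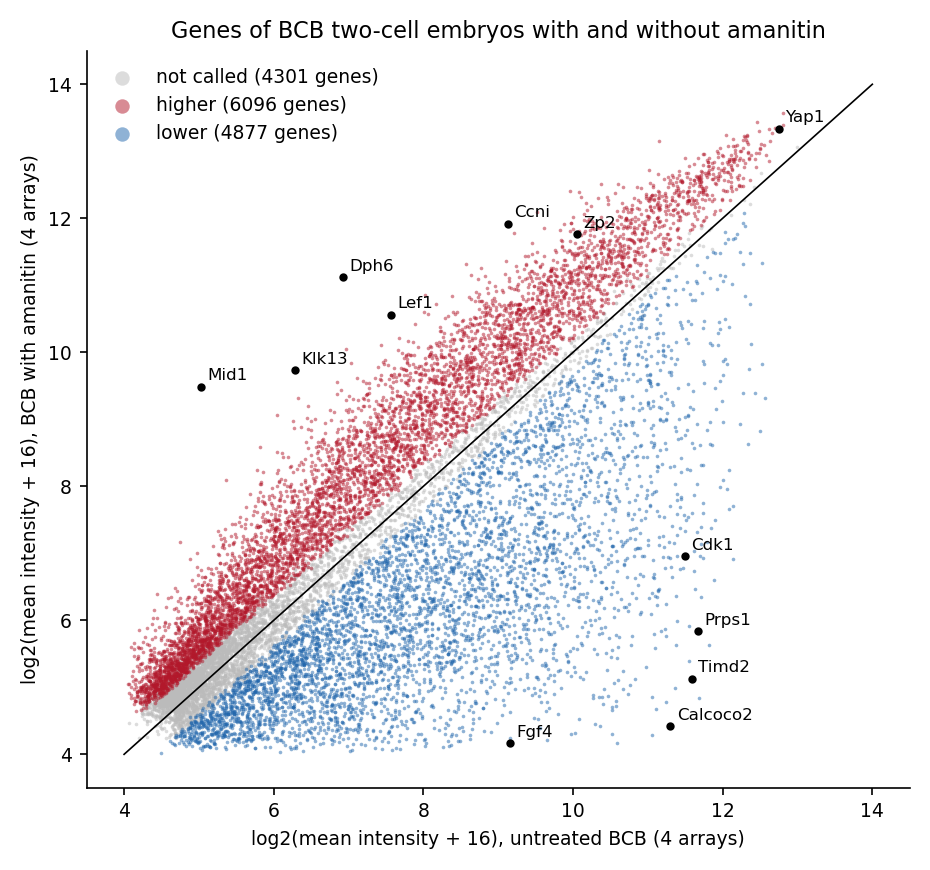
Each point is 1 of 15274 genes, with log2(mean intensity + 16) over the 4 untreated BCB arrays on the horizontal axis and over the 4 treated arrays on the vertical axis; the line marks equal values and colours mark the 6096 genes called higher and the 4877 called lower. The lower genes spread down to the floor of the scale, as for Calcoco2 and Fgf4, while the higher genes form a band above the line from which Mid1, Dph6, Klk13, Lef1 and Ccni stand apart.

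The sequences before the transcription starts of genes at both ends of the response are shown here because the treatment stops the polymerase that starts there. RefSeq's promoter table (GRCm38.p6) matched 4 of the 5 genes with the largest falls (clone names and predicted genes are left out of the largest changes here and below), Exoc3l2, Timd2, Ubtfl1 and Ctsc, and the gene with the largest rise, Mid1. The 250 bases before the annotated start are at chr7:19463037-19463286 (plus strand) for Exoc3l2, at chr11:46707105-46707354 (minus strand) for Timd2, at chr9:18404168-18404417 (plus strand) for Ubtfl1, at chr7:88277835-88278084 (plus strand) for Ctsc and at chrX:169684949-169685198 (plus strand) for Mid1. Timd2 and Mid1 have several starts in the table, of which 1 is shown. The sequences are written 5′ to 3′ on the gene's strand, and capitals mark matches on either strand to the TATA box (letters TATAAA), the box of factor NF-Y (letters CCAAT), the Sp1 core (letters GGGCGG), the ETS core (letters CCGGAAG) and the homeodomain motif of the Otx type (letters TAATCC).
Exoc3l2: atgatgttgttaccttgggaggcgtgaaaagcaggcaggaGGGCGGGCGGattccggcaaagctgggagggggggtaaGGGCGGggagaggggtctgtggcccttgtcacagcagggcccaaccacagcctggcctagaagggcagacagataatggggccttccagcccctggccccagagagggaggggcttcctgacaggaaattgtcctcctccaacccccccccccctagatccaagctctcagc
Timd2: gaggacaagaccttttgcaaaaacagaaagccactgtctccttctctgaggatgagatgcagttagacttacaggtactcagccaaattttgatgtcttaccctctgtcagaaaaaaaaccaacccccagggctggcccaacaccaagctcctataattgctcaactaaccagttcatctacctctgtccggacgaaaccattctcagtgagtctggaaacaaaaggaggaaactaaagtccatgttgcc
Ubtfl1: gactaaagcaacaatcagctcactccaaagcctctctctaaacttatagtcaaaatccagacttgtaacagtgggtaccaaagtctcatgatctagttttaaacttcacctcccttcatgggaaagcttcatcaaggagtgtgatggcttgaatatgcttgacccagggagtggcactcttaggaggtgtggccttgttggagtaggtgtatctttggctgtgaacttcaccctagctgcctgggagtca
Ctsc: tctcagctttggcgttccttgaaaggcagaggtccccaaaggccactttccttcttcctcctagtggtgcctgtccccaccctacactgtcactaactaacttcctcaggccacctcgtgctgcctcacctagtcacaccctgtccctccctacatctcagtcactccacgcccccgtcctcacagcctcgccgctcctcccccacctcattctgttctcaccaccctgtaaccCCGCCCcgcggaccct
Mid1: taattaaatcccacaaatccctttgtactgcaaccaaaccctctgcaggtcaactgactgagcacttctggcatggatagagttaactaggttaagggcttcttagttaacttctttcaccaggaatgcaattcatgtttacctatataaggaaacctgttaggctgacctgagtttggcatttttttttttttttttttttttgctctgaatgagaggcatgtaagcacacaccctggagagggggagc
Among these 5 sequences only GGGCGG, the core of the site read by Sp1-type factors, was found, with 3 matches before Exoc3l2, of which a pair overlap, and 1 before Ctsc on the other strand. GC content was 63.6% for Exoc3l2 and 60.4% for Ctsc, against 45.6% for Timd2, 46.0% for Ubtfl1 and 40.8% for Mid1. A match describes the letters only, and the absence of these letters says nothing of a factor.

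The largest fall was that of Calcoco2, an autophagy receptor that links cargo to the forming autophagosome. Its intensity was 2859, 2486, 2573 and 2113 on untreated arrays 1 to 4 and 5.8, 1.5, 7.3 and 7.0 on treated arrays 1 to 4, a log2 change of −6.88 (SE 0.14, limma adjusted p = 7.41e-21). The lowest untreated array was thus far above the highest treated one. Exoc3l2, a relative of an exocyst subunit, went from 2047, 2279.5, 2192 and 1969.8 to 4.4, 1.1, 7.9 and 0.5 (−6.79, SE 0.16). Timd2, a cell-surface receptor for ferritin, went from 3188, 3209, 3229.6 and 2639 to 23.9, 25.5, 9.7 and 16.8 (−6.48, SE 0.16). Ubtfl1, an HMG-box protein made in the early embryo, went from 2030.0, 2299.7, 2256 and 2172 to 9.1, 5.9, 6.2 and 17.3 (−6.45, SE 0.16). The highest treated value of these 4 genes was 25.5 and the lowest untreated value 1969.8, so the groups did not overlap for any of them.

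The protease and ribosome genes followed. Ctsc, the lysosomal protease cathepsin C, had intensities of 2439.9, 2692, 2729.6 and 2562 untreated and 11.1, 8.1, 12.9 and 30.6 treated (−6.42, SE 0.18). Riox1, an oxygenase that hydroxylates a ribosomal protein, had 1250.3, 1739, 1557 and 1525 untreated and 2.7, 2.5, 1.5 and 1.6 treated (−6.40, SE 0.13). Riox1 kept 0.137% of its untreated mean, the least of all genes that fell 8-fold or more. Rrs1, an assembly factor of the large ribosomal subunit, went from 2998, 3032, 2959 and 2887 to 24.2, 57.0, 7.9 and 14.2 (−6.29, SE 0.21). Treated array 2 was the highest of the 4 for Rrs1 and array 3 the lowest. The rest of the 12 largest falls were Btbd18, a BTB-domain protein (−6.26), the zinc finger gene Zfp707 (−6.22), Selenos, a selenoprotein of the endoplasmic reticulum (−6.19), Npl, an enzyme of sialic acid breakdown (−5.94), and Ficd, which modifies the chaperone BiP (−5.89). Selenos had the highest intensity among the 12, 3597 ± 131 untreated and 33.4 ± 1.02 treated. Changes to such low intensities depend on the constant added before taking logarithms, here 16, which bounds how far a fall can go.

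**Figure D3:**
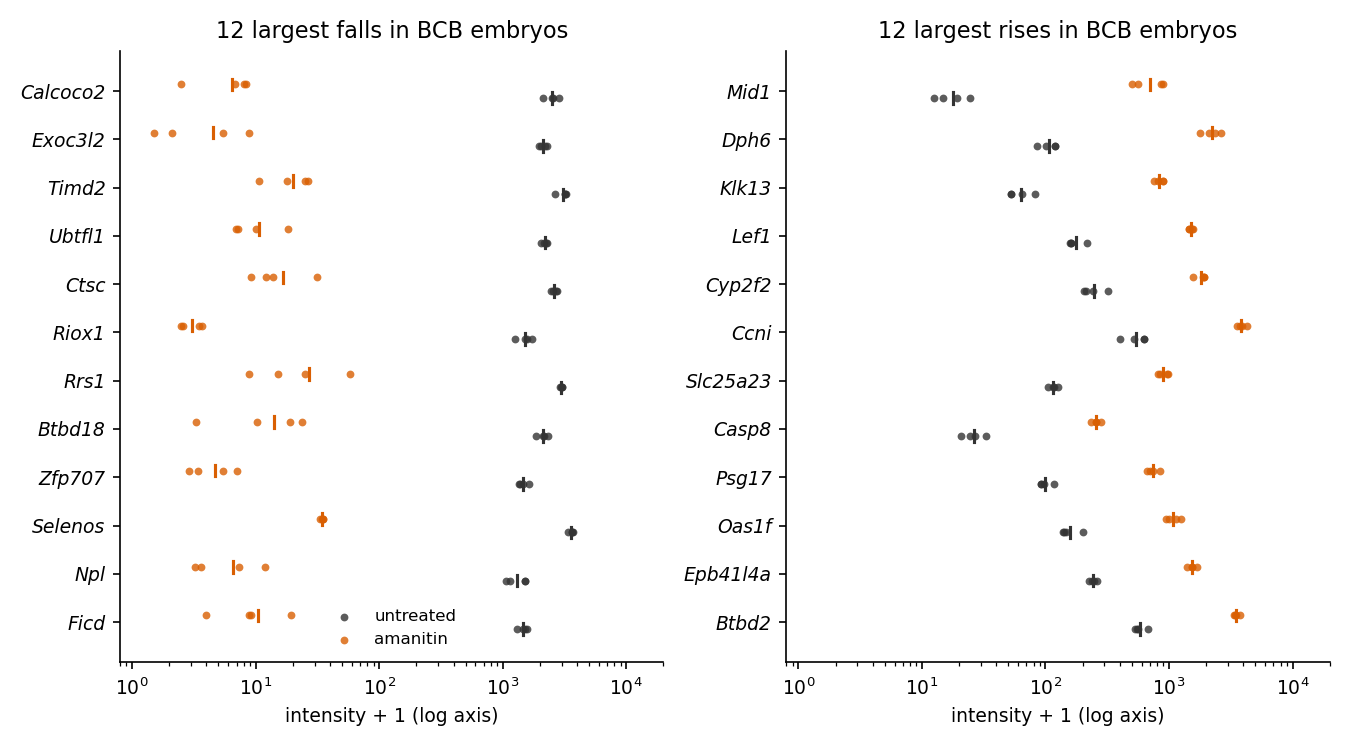
Intensity plus 1 on each BCB array (log axis) for the 12 genes with the largest falls, left, and the 12 with the largest rises, right; points are arrays and ticks the mean of the 4 arrays of a group. For every gene the 4 treated arrays are separate from the 4 untreated arrays, and the untreated values of the falling genes are all over 1000.

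Over all 719 genes that fell 8-fold or more, the signal left with amanitin had a median of 4.93% of the untreated mean and ranged from 0.137% to 11.95%. On all 4 treated arrays 110 of them were under an intensity of 16, and 532 were under 100, while 187 stayed over 100 on at least 1 treated array. On single treated arrays the share of the 719 under 16 was 24.9% to 28.5%. In 29 of the 719 genes another probe set of the same gene was called higher, and across the 6804 genes with several tested probe sets 857 had calls in both directions. The size of a fall is limited by the untreated level, and no gene with an untreated mean under 100 fell 8-fold. Among genes with an untreated mean over 1000, 44.9% fell and 48.3% rose, against 19.1% and 36.9% of genes with a mean under 100.

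Nearly all genes known to be switched on at the two-cell stage fell. Of 21 such genes, 20 fell (95.2%) and 1 rose (4.76%), beside 31.9% and 39.9% of all genes. At least 8-fold falls numbered 15, beside 719 of all 15274 genes tested. The median log2 change of the 21 genes was −4.03, against 0.17 for all genes. Their summed intensity was 37128 to 38793 on untreated arrays and 3132 to 4007 on treated arrays. This list and the others were assembled with results of these data known, so their counts describe these samples and are no independent evidence. Ubtfl1 had the largest fall. Zfp352, the most intense of the list, by which is meant the highest mean over the 8 BCB arrays, a measure that also depends on the probes, was 4467, 4431, 4012 and 4110.0 on the untreated arrays and 242, 298, 255 and 134 on the treated arrays (−4.15, SE 0.15), so treated array 4 was the lowest and no treated array came near the untreated ones. Pramel7, a Prame-like gene of early embryos, fell from 2978 to 44.2 (−5.66), Dppa4, a nuclear protein of early embryos, from 2235 to 71.4 (−4.68), and Hspa1a, an inducible heat shock protein, from 1098 to 43.8 (−4.40); these members, like the others named below in addition to the extremes and the most intense member of each list, were chosen after their values were seen. Tcstv1 and Tcstv3 kept more of their signal, 39.2% and 21.9% of the untreated mean. The member that rose was Duxf3, of the Dux family that activates two-cell genes, with 7.8, 12.8, 8.2 and 12.9 untreated and 45.2, 40.7, 33.0 and 30.4 treated (1.01, 0.22 and not called on the scale of the hybridization controls, and −0.72 on the poly-A scale). All its untreated values lay under the constant of 16 and under the array medians of 18.7 to 21.0, so the size of its change is not well measured.

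Transcription factors of pluripotency and of the first lineages split. Of 33 tested, 21 fell (63.6%) and 9 rose (27.3%), beside 31.9% and 39.9% of all genes. On the scales of the hybridization and poly-A controls 6 and 9 of those rises lay below 0. The median log2 change was −1.03. Klf5, a Krüppel-like factor needed in the blastocyst, fell from 952 to 44.6 (−3.9996) and Tbx3, a T-box factor, from 1303 to 89.6 (−3.64). Of the 3 tested probe sets of Klf5 only 1 was called lower, and none was called higher. Sox2, which acts with Pou5f1 in pluripotent cells, fell from 154 to 24.8 (−2.10). Yap1, the effector of Hippo signalling and the most intense of the list, was 6859 ± 364 untreated and 10346 ± 491 treated (0.59), but −0.027 after quantile normalization, −0.20 on the scale of the hybridization controls and −1.14 on the poly-A scale. Pou5f1, which the oocyte also stores, rose from 1174 to 2472 (1.07, and −0.66 on the poly-A scale) and Gata3, a trophectoderm factor, from 34.9 to 122 (1.45, and −0.28 on the poly-A scale). The summed intensity of the list was 21868 to 23001 untreated and 21501 to 22913 treated, so the ranges overlapped although most members fell. Cdx2 and Gata6, factors of later lineages, were at 60.6 ± 10.9 and 58.4 ± 11.9 untreated, and Nanog at 5.20, and Nanog was not among the genes that passed the filter on low values.

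Among 39 growth factors and receptors, 12 fell and 15 rose, 6 and 14 of the rises lying below 0 on the 2 control scales, with a median of 0.20. These shares, 30.8% lower and 38.5% higher, beside 31.9% and 39.9% of all genes, were close to the background. Fgf4, the fibroblast growth factor of the inner cell mass, was 470.2, 642, 655 and 459 on untreated arrays and 0.7, 3.3, 0.9 and 2.8 on treated arrays (−4.98, SE 0.16), the largest fall of the list. The Wnt receptors Fzd5 and Fzd7 fell from 381 to 10.3 (−3.95) and from 464 to 24.6 (−3.65). Egfr, the receptor of epidermal growth factor, rose from 442 to 1692 (1.90, and 0.17 on the poly-A scale), and 5 of its 6 probe sets were called higher. Il6st, the shared receptor subunit of the interleukin 6 family and the most intense member, rose from 887 to 2081 (1.23, and −0.51 on the poly-A scale). Kit, the receptor of stem cell factor that oocytes carry, was 1219 untreated and 1209 treated (−0.010) and did not pass the test.

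Of the target of the toxin and its partners, most messages tested were lower. Of 10 subunits of RNA polymerase II, 7 fell and 2 rose, 1 and 2 of the rises lying below 0 on the 2 control scales (70% lower and 20% higher, beside 31.9% and 39.9% of all genes). Polr2a, the large subunit that α-amanitin binds, was 499, 474, 443 and 407 on untreated arrays and 111, 181, 132 and 111 on treated arrays (−1.68, SE 0.14). Its groups did not overlap, but its 2 probe sets disagreed, 1 called lower and 1 higher. Polr2h, a subunit shared by all nuclear polymerases, fell from 847 to 58.5 (−3.55), and Polr2c, a subunit of the assembly core, rose from 3259.6 to 5942 (0.86, and −0.87 on the poly-A scale). Of 28 elongation factors 21 fell and 5 rose, 4 and 5 of the rises lying below 0 on the 2 control scales; the median was −1.71. Ccnt1 and Cdk9, the cyclin and the kinase of P-TEFb, fell from 558 to 17.8 (−4.10) and from 2258 to 136 (−3.92). Tcea1, which restarts stalled polymerase, was higher in its most intense probe set, from 2504 to 3688 (0.56, but −0.23 on the scale of the hybridization controls and −1.17 on the poly-A scale), and lower in its other one. Ell, which raises the rate of elongation, rose from 384 to 907 (1.21, and −0.53 on the poly-A scale). The summed intensity of the elongation factors was 18574 to 18801 untreated and 10044 to 10724 treated. For RNA polymerases I and III and their factors, which make ribosomal and transfer RNA, 30 of 36 fell (83.3%) and 4 rose (11.1%). On the 2 control scales 2 and 3 of these rises lay below 0, and the median as deposited was −1.93. Polr1c, shared by both enzymes, fell from 2753 to 149 (−4.07). Polr3f, a subunit of polymerase III, rose from 114 to 461 (1.88, and 0.15 on the poly-A scale), and Gtf3c2, a subunit of factor TFIIIC and the most intense member, was higher, from 2006 to 2241 (0.16, but −0.16 after quantile normalization, −0.63 on the scale of the hybridization controls and −1.57 on the poly-A scale), with 3 probe sets called higher and 1 lower.

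Most genes tested that build ribosomes fell. Of 48 genes of small nucleolar ribonucleoproteins and ribosomal RNA processing, 43 fell (89.6%) and 2 rose (4.17%), beside 31.9% and 39.9% of all genes. At least 8-fold falls numbered 17, beside 719 of all 15274 genes tested. Both rises had log2 changes below 0 on the 2 control scales, and the median of the list was −2.18. Beside Rrs1, Nip7, a factor of the large subunit with a second probe set that was called higher, fell from 1576 to 64.1 (−4.32), Nop58, a core protein of box C/D particles, from 1005 to 64.2 (−3.68), and Fbl, the methyltransferase fibrillarin, from 1424 to 134 (−3.28). Bms1, a GTPase of the small subunit and the most intense member, fell less, from 3980.0 to 2843 (−0.48). Pes1, of the large subunit, was higher, from 607 to 898 (0.55, but −0.24 on the scale of the hybridization controls and −1.18 on the poly-A scale). Of 45 cytosolic ribosomal proteins 41 fell (91.1%), 14 of them at least 8-fold, and 2 rose (4.44%). Both rises had log2 changes below 0 on the 2 control scales. The median was −2.38 and the summed intensity 78946 to 81969 untreated and 20221 to 28911 treated. Rps26 of the small subunit was 2629, 2699.6, 2402 and 2437 untreated and 75.8, 88.9, 90.3 and 81.7 treated (−4.68, SE 0.15). Its arrays agreed closely within each group and did not overlap between groups. Rpl6 of the large subunit fell from 2964 to 171 (−4.005). Rps2, the most intense, was 4045, 4025, 3987 and 4094 untreated and 5505, 5408, 5051 and 3720.2 treated, a log2 change of 0.27 but −0.28 after quantile normalization and −0.52 and −1.46 on the control scales, with treated array 4 below all untreated arrays. Rpl39 was higher by 0.39, but −0.40 and −1.34 on the control scales. Ribosomal protein genes have many processed copies in the mouse genome, so a probe set may read more than 1 copy.

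The chaperonin TRiC folds actin and tubulin, and prefoldin feeds it. Of their 17 genes 11 were lower (64.7%) and 4 higher (23.5%), beside 31.9% and 39.9% of all genes. The 4 rises all lay below 0 on both control scales. Cct6a fell from 2230.3 to 70.3 (−4.72), and Cct3, the most intense, was 5276, 5081, 4766 and 4582 untreated and 744, 566, 783 and 536 treated (−2.89, SE 0.22). Pfdn4 of prefoldin was 633 untreated and 1071 treated, higher by 0.74 but −0.052 and −0.99 on the control scales. Of 22 cytosolic aminoacyl-tRNA synthetases and their scaffold proteins, 14 fell (63.6%) and 4 rose (18.2%), with a median of −0.38. On the control scales 1 and 4 of the rises lay below 0. Aimp2, a scaffold of the synthetase complex, fell from 1077 to 67.9 (−3.71), while Farsb, a subunit of phenylalanyl-tRNA synthetase and the most intense member, rose from 1244 to 2199.8 (0.82, and −0.92 on the poly-A scale). Vars, the valyl enzyme, was called higher (1.06, 0.26 and not called on the scale of the hybridization controls, and −0.68 on the poly-A scale), but its untreated intensities, 4.9, 3.7, 4.5 and 7.1, all lay under the constant of 16 and under the array medians, so the size of its change is not well measured.

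Most enzymes of nucleotide synthesis tested fell, with 26 of 33 lower (78.8%) and 4 higher (12.1%), beside 31.9% and 39.9% of all genes. On the control scales 0 and 4 of the rises lay below 0, and the median as deposited was −1.37. Prps1, which makes the ribose phosphate of all nucleotides, was 3082, 3455, 3506 and 2930.1 untreated and 38.3, 38.4, 41.7 and 45.8 treated (−5.83, SE 0.15). Ppat, the first committed enzyme of purine synthesis, fell from 1507 to 11.7 (−5.80). Rrm2b, a subunit of ribonucleotide reductase and the most intense member, rose from 2210.4 to 4692 (1.08, and −0.65 on the poly-A scale), and Shmt2, of mitochondrial folate metabolism, from 789.5 to 2139.7 (1.42, and −0.31 on the poly-A scale). Transport through the nuclear pore was mixed. Of 33 importins, exportins and Ran cofactors 21 fell (63.6%) and 9 rose (27.3%). On the control scales 3 and 9 of the rises lay below 0. Xpot, the exporter of transfer RNA, fell from 1073 to 19.6 (−4.93), Ipo7 from 1909.7 to 53.9 (−4.79) and Kpna2, an importin α, from 5189 to 843 (−2.62), whereas Kpna7, an importin α of oocytes, rose from 512 to 1307 (1.34, and −0.39 on the poly-A scale) and Ipo9, another importin, from 434 to 1478 (1.73, and −0.0038 on the poly-A scale). Xpo7, the most intense, was 4405 untreated and 6236 treated (0.50, but −0.074 after quantile normalization, −0.29 and −1.23 on the control scales), and 2 of its 5 probe sets were called higher and 2 lower. Of 25 genes of mRNA export and the exon junction, 13 fell and 5 rose, 3 and 5 of the rises lying below 0 on the control scales. Ncbp1, which binds the mRNA cap in the nucleus, fell from 1609.5 to 21.9 (−5.43); Thoc2, of the THO export complex, rose from 877 to 2089 (1.22, and −0.51 on the poly-A scale); and Rnps1, the most intense, was 3359 untreated and 3783 treated (0.17) and did not pass the test, with 3 of its 5 probe sets called higher and 1 lower.

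Of 32 genes of protein folding and the unfolded protein response in the endoplasmic reticulum, 22 fell and 6 rose (68.8% lower and 18.8% higher, beside 31.9% and 39.9% of all genes), 5 and 6 of the rises lying below 0 on the control scales, with a median of −0.84 and a summed intensity of 28364 to 29867 untreated and 13087 to 13951 treated. Dnajb9, a co-chaperone of BiP, was 3729.6, 3758, 3919.5 and 3691 untreated and 79.1, 96.1, 49.6 and 101 treated (−5.32, SE 0.15). Hspa5, which is BiP itself and the most intense member, fell from 3798 to 692 (−2.44). Edem1, which directs misfolded proteins to degradation, rose from 268 to 488 (0.83, and −0.90 on the poly-A scale). Its 2 probe sets disagreed. Lysosome and autophagy genes had 23 falls (63.9%) and 6 rises (16.7%) among 36, with a median of −1.32. On the control scales 3 and 6 of the rises lay below 0. Calcoco2 and Ctsc were the largest falls, and the cathepsins Ctsb and Ctsl fell from 2669.7 to 108 (−4.44) and from 3994 to 237 (−3.99). Npc2, the cholesterol carrier of the lysosome and the most intense member, fell from 4093 to 2115 (−0.95). Atg5, a core autophagy gene, was 487, 482, 495 and 669.6 untreated and 1792, 1851, 1379.7 and 1187 treated (1.503, and −0.23 on the poly-A scale); treated arrays 3 and 4 were lower than 1 and 2 but above every untreated array. The summed intensity of the list was 39100.0 to 43654 untreated and 15326 to 16105 treated.

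Among 28 genes of glucose and pyruvate use 15 fell (53.6%) and 9 rose (32.1%), beside 31.9% and 39.9% of all genes. Of these rises 3 and 9 lay below 0 on the control scales. Slc16a1, a carrier of lactate and pyruvate, was 371, 402, 400.2 and 337 untreated and 0.7, 1.4, 6.5 and 2.7 treated (−4.39, SE 0.16), and the glucose transporter Slc2a3 fell from 1851 to 76.4 (−4.35). The other transporter Slc2a1 rose from 270.4 to 730.1 (1.39, and −0.35 on the poly-A scale), and Ldhb, the lactate dehydrogenase subunit most intense here, was higher, from 3272 to 5378 (0.72, but −0.075 on the scale of the hybridization controls and −1.02 on the poly-A scale). The glucose carriers thus moved in opposite directions on the deposited scale. Among 29 antioxidant enzymes 14 fell (48.3%) and 10 rose (34.5%), 6 and 9 of the rises below 0 on the control scales. Their summed intensity was 19584 to 19893 untreated and 20902 to 21474 treated. Prdx4, the peroxiredoxin of the endoplasmic reticulum, fell from 1192 to 101 (−3.37), Prdx2 of the cytosol, the most intense, rose from 3558 to 7300.4 (1.04, and −0.70 on the poly-A scale), and Txn2, mitochondrial thioredoxin, rose from 901 to 3252 (1.83, and 0.10 on the poly-A scale). For cholesterol and fatty acid synthesis 13 of 29 fell and 8 rose, 5 and 8 of the rises below 0 on the control scales, with sums of 19659 to 20852 and 19522 to 21984 (44.8% lower and 27.6% higher, beside 31.9% and 39.9% of all genes). The fatty acid elongase Elovl6 fell from 1260.3 to 29.1 (−4.86) and the desaturase Scd1 from 891 to 44.7 (−3.90). Nsdhl, of late cholesterol synthesis, rose from 117 to 286 (1.19, and −0.54 on the poly-A scale), and Hmgcs1, of its first steps and the most intense, was 3778 untreated and 5004 treated (0.41, but −0.16 after quantile normalization, −0.38 and −1.32 on the control scales).

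Replication and cell cycle genes went both ways. Of 43 replication genes 25 fell (58.1%) and 14 rose (32.6%), and the median was −0.80. On the control scales 7 and 14 of the rises lay below 0. Rpa2, a subunit of the single-strand binding protein, fell from 817 to 39.4 (−3.93) and Pcna, the sliding clamp, from 3638 to 379.7 (−3.21). Rfc2, a subunit of the clamp loader, rose from 59.1 to 183 (1.42, and −0.31 on the poly-A scale). Dbf4, which activates the kinase that fires origins and is the most intense member, was higher, 4371 to 6483 (0.57, but −0.0094 after quantile normalization, −0.23 and −1.17 on the control scales). Of 44 cyclins, kinases and checkpoint genes 20 fell and 18 rose, 10 and 16 of the rises below 0 on the control scales (45.5% lower and 40.9% higher, beside 31.9% and 39.9% of all genes); the median was 0.0042, below the 0.17 of all genes. Cdk1, the mitotic kinase, was 2816, 3041, 2934 and 2709 on untreated arrays and 123, 119, 88.6 and 101 on treated arrays (−4.55, SE 0.12), with no overlap. Cdkn1a, the p21 inhibitor, fell from 673 to 67.9 (−3.05). Ccni, an atypical cyclin, was 626, 519.6, 399 and 624 untreated and 3889, 3517, 3756 and 4272 treated (2.81, SE 0.13), and remained called higher on the poly-A scale (1.08); all 4 of its probe sets were called higher. Wee2, the oocyte kinase that holds meiosis, rose from 3324 to 6694 (1.01, and −0.72 on the poly-A scale), and Pttg1, securin and the most intense member, with probe sets called in both directions, was higher, 5745 to 8392 (0.55, but −0.11 after quantile normalization, −0.24 and −1.18 on the control scales). Mos, the kinase that arrests the egg, was at 18.8 ± 2.33 untreated and 53.2 ± 14.4 treated (0.97, and −0.76 on the poly-A scale).

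Of 24 histone variants, histone chaperones and linker histones 10 fell and 9 rose, 8 and 9 of the rises lying below 0 on the control scales (41.7% lower and 37.5% higher, beside 31.9% and 39.9% of all genes). Anp32e, a chaperone that removes the variant H2A.Z and whose second probe set was called higher, fell from 2147 to 224 (−3.23), and the H2A.Z genes H2az1 and H2az2 fell from 1898 to 378 (−2.33) and from 2076 to 269 (−2.91). Nap1l1, an assembly chaperone, was called higher, from 1504 to 3206 (1.08, and −0.65 on the poly-A scale), but 4 of its 7 probe sets were called lower and 2 higher. Anp32b, the most intense, was 2655 untreated and 3614 treated (0.44, but −0.040 after quantile normalization, −0.35 and −1.29 on the control scales). Of 40 enzymes of DNA and histone methylation 17 fell and 18 rose, 8 and 17 of the rises below 0 on the control scales (42.5% lower and 45.0% higher, beside 31.9% and 39.9% of all genes). Prmt6, an arginine methyltransferase, was 1332, 1514, 1621 and 1356 untreated and 2.6, 2.8, 21.3 and 13.2 treated (−5.88, SE 0.19). Treated arrays 3 and 4 were higher than 1 and 2 for Prmt6, and all 4 were far below the untreated arrays. Kdm5b, a histone demethylase, fell from 3529 to 128 (−4.62). Dnmt3l, the partner of the de novo DNA methyltransferases, rose from 250.2 to 1057 (2.01, and 0.28 on the poly-A scale), Tet3, which oxidises methylcytosine in the zygote, from 111 to 403 (1.72, and −0.0083 on the poly-A scale), and Suz12, of Polycomb and the most intense member, 4023 to 6724 (0.74, but −0.054 and −0.99 on the control scales). Dnmt1, the maintenance methyltransferase, was higher, from 424 to 622 (0.53, but −0.26 on the scale of the hybridization controls and −1.20 on the poly-A scale).

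Most transcripts tested that the oocyte stores were higher on the deposited scale, and their direction depended on the scaling. Of 23 zona, oocyte secreted and oocyte regulator genes 18 rose (78.3%) and 3 fell (13.0%), beside 39.9% and 31.9% of all genes. However, 8 and 18 of the 18 rises lay below 0 on the 2 control scales. The median was 0.73 as deposited, −0.056 on the scale of the hybridization controls and −0.997 on the poly-A scale, beside 0.17, −0.62 and −1.56 for all genes. Their summed intensity was 31632 to 35664 untreated and 55888 to 59453 treated. Zp2, a protein of the egg coat, was 1047, 989, 1038 and 1107 untreated and 3396, 3559, 3252 and 3662 treated (1.71, SE 0.08), and −0.017 on the poly-A scale. Zp1 rose from 418 to 1126 (1.40, and −0.33 on the poly-A scale), but Zp3, the third coat protein, was 741, 759, 697 and 659 untreated and 713, 653, 673 and 692 treated and did not pass the test (−0.062, adjusted p = 0.589). The coat genes, made together in the growing oocyte, therefore had different values here. Bmp15, an oocyte growth factor, rose from 1168 to 2753 (1.23, and −0.50 on the poly-A scale) and Gdf9, its relative, from 2175 to 3338 (0.62, but −0.18 on the scale of the hybridization controls and −1.12 on the poly-A scale). Bcl2l10, a survival protein of oocytes and the most intense of the list, rose from 5131 to 9557 (0.90, and −0.83 on the poly-A scale). H2-Bl, a class I-like gene that the list held, fell from 207 to 30.0 (−2.26), as did Cd9, the egg tetraspanin of sperm fusion, from 165 to 39.6 (−1.71). Of 17 genes of the subcortical maternal complex and the Nlrp family 15 rose (88.2%) and 1 fell (5.88%). On the 2 control scales 5 and 15 of the rises lay below 0. The medians were 0.95, 0.15 and −0.79 on the 3 scales, and the sums 25749 to 29752 untreated and 46411 to 50379 treated. Nlrp5, the core of the complex, rose from 1527 to 3740.2 (1.28, and −0.45 on the poly-A scale), Nlrp4a, of the same family, from 1226 to 3018 (1.30, and −0.43 on the poly-A scale), and Khdc1b, the most intense, was 7159 untreated and 10739 treated (0.58, but −0.018 after quantile normalization, −0.21 and −1.15 on the control scales). Khdc3, a further member of the complex, fell from 143 to 58.2 (−1.19).

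The machinery that stores and removes maternal messages had both falls and rises. Of 42 genes of deadenylation and decay 21 fell and 18 rose, 8 and 18 of the rises lying below 0 on the control scales, with a median of −0.23 and sums of 35115 to 38159 untreated and 51154 to 55492 treated. Tob1, an adaptor of the deadenylase complex, fell from 708 to 49.1 (−3.48), and of the 9 exosome subunits tested 8 fell and Exosc8 rose from 1650.5 to 2376 (0.52, but −0.27 on the scale of the hybridization controls and −1.21 on the poly-A scale). Cnot7, a catalytic subunit of the CCR4-NOT deadenylase and the most intense, was 4787 untreated and 8175 treated (0.77, but −0.024 and −0.96 on the control scales). Btg4, the oocyte adaptor of that complex, rose from 4341 to 7561 (0.80, and −0.94 on the poly-A scale), its subunit Cnot6l from 3874 to 8211 (1.08, and −0.65 on the poly-A scale), and Dcp1a, of the decapping complex, from 816 to 2227 (1.43, and −0.30 on the poly-A scale). Of 42 storage and polyadenylation genes 16 fell and 20 rose, 7 and 19 of the rises below 0 on the control scales (38.1% lower and 47.6% higher, beside 31.9% and 39.9% of all genes). Cstf1, a cleavage factor, fell from 1413 to 37.3 (−4.77) and Pabpc1, the poly-A binding protein of somatic cells, from 4796 to 473 (−3.31). Msi2, an RNA-binding protein of the Musashi family, was 71.3, 84.4, 75.1 and 81.9 untreated and 470.0, 443, 586 and 486 treated (2.44, SE 0.15) and was also called higher on the poly-A scale (0.71). Ybx2, which packages stored messages in germ cells, rose from 1088 to 3424 (1.64, and −0.091 on the poly-A scale) and Dazl, a translational regulator of the oocyte, from 997 to 2813 (1.48, and −0.25 on the poly-A scale). Pabpn1, the most intense, was 8168 untreated and 8586 treated (0.073) and did not pass the test, while 3 of its 4 probe sets were called lower.

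Among 38 genes of apoptosis and p53 20 fell (52.6%) and 11 rose (28.9%), with a median of −0.59. On the control scales 4 and 10 of the rises lay below 0. Sesn2, a stress-induced target of p53, fell from 2344 to 137 (−4.003). Mdm2, the ligase of p53, fell from 867 to 562 (−0.61). Casp8, the initiator caspase of death receptors, was 19.7, 31.8, 26.1 and 23.3 untreated and 254, 231, 282 and 257 treated (2.73, SE 0.18) and stayed called higher on the poly-A scale (0.996). Of 34 adhesion, junction and polarity genes 14 fell and 11 rose, 3 and 10 of the rises below 0 on the control scales (41.2% lower and 32.4% higher, beside 31.9% and 39.9% of all genes), and the summed intensity was 14243 to 15386 untreated and 9553 to 10648 treated. Itgav, the integrin αV, was 1055, 1175, 989 and 1052 untreated and 9.8, 10.5, 1.0 and 7.1 treated (−5.57, SE 0.15). Gja1, a gap junction protein, fell from 1155 to 40.6 (−4.38), Cdh1, E-cadherin, from 703 to 152 (−2.11), and Ctnna1, α-catenin and the most intense, from 1976 to 1026 (−0.94). Pard3, of the apical polarity complex, rose from 300.1 to 1075 (1.78, and 0.050 on the poly-A scale).

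**Figure D4:**
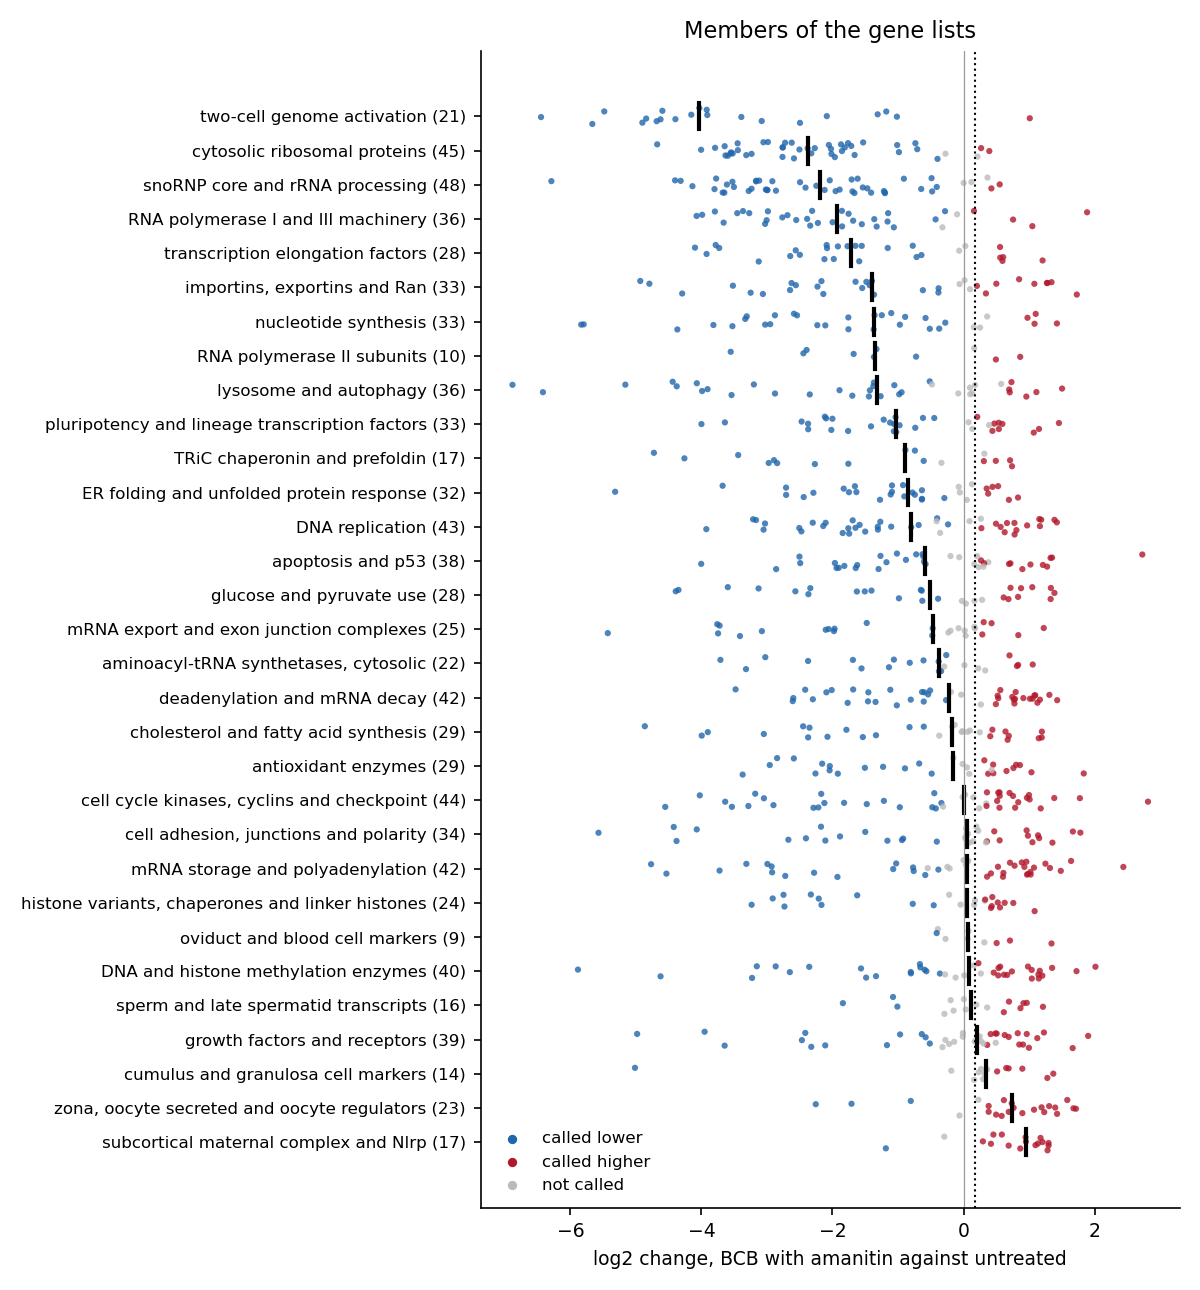
Log2 change with amanitin of each tested member of the 31 gene lists (points, coloured by call; the number tested is in brackets), with the list's median as a bar and the median of all genes, 0.17, as a dotted line. The two-cell activation list and those of ribosome building have the lowest medians, and the 2 lists of oocyte transcripts have the medians furthest to the right, 0.73 and 0.95.

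Few genes had large rises, and the 12 largest among those whose groups did not overlap were called higher on the poly-A scale too. Mid1, a ubiquitin ligase bound to microtubules, was 23.4, 18.1, 11.6 and 13.8 on untreated arrays and 892, 859, 499.6 and 561 on treated arrays, a log2 change of 4.43 (SE 0.18, limma adjusted p = 3.41e-16) and 2.69 on the poly-A scale. Treated arrays 1 and 2 were higher than 3 and 4, and all 4 were far above the untreated arrays. Of its 2 probe sets 1 was called higher and none lower, and its untreated values lay around the array medians, so its fold change depends on the constant. Dph6, an enzyme of diphthamide synthesis on an elongation factor, was 101, 118, 84.8 and 119 untreated and 1771, 2109.7, 2339.5 and 2637 treated (4.19, SE 0.18, and 2.46 on the poly-A scale). Klk13, a secreted protease of the kallikrein family, was 63.5, 51.8, 51.2 and 82.0 untreated and 748, 898, 807 and 888 treated (3.46, and 1.73). Lef1, a transcription factor of Wnt signalling, was 161, 161, 158 and 217 untreated and 1458, 1452, 1520.2 and 1559.5 treated (3.004, and 1.27), with all its tested probe sets called higher. For each of these genes no array of one group overlapped the other. Cyp2f2, a cytochrome P450, rose from 245 to 1827 (2.84, and 1.10 on the poly-A scale), Slc25a23, a mitochondrial carrier of ATP, from 115 to 900.2 (2.81, and 1.08 on the poly-A scale), and Psg17, a pregnancy-specific glycoprotein, from 98.7 to 738 (2.72, and 0.98 on the poly-A scale). Oas1f, of the oligoadenylate synthetase family, rose from 156 to 1083 (2.68, and 0.95 on the poly-A scale), Epb41l4a, a membrane-skeleton protein, from 242 to 1537 (2.59, and 0.86 on the poly-A scale), and Btbd2, a BTB-domain protein, from 576 to 3499 (2.57, and 0.84 on the poly-A scale). With Ccni and Casp8 these are the 12 largest rises, and all 12 were among the 100 genes still called higher on the poly-A scale. That scale lowers every change by the same 1.73 and keeps their order, so it gives no separate support for the largest rises.

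Treated arrays lay further from their group mean than untreated ones. The SD of an array's deviations from its group mean, over genes, was 0.171 to 0.185 for untreated and 0.236 to 0.264 for treated arrays. Cmtm2a, a chemokine-like factor, was 40.6, 40.3, 43.2 and 22.0 untreated and 142, 41.6, 75.7 and 271 treated, so its groups overlapped although it was called higher (1.27, and −0.47 on the poly-A scale). Dbi, the acyl-CoA binding protein, was 1586, 1418, 1324 and 1671 untreated and 1072, 898, 615 and 251 treated (−1.24, SE 0.28). Rad51ap1, of homologous recombination, was 652, 618, 639.6 and 624 untreated and 58.3, 56.7, 234 and 132 treated (−2.45, SE 0.26). Slc16a11, a monocarboxylate carrier, was 138, 182, 133 and 113 untreated and 189, 296, 486 and 767 treated (1.36, and −0.37 on the poly-A scale). Treated array 4 was the highest or lowest for Cmtm2a, Dbi and Slc16a11 and array 3 the highest for Rad51ap1; among called genes with a treated mean over 100, these had the widest spread of treated arrays on the log2 scale.

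The genes in each class of response differed in features that the comparison did not use. Median gene length, from the RefSeq annotation for 99.02% or more of each class, was 16.1 kb for genes that fell at least 8-fold, 16.5 kb for falls of 2- to 8-fold, 18.8 kb for smaller falls, 17.7 kb for genes not called, 28.9 kb for rises under 2-fold and 35.9 kb for rises of 2-fold or more, against 21.9 kb for all genes tested. Genes over 50 kb made up 12.3% of the first class and 41.3% of the last, and genes under 5 kb 16.6% and 7.37%. Among genes with an untreated mean over 1000 the medians were 14.4, 14.97, 22.2, 28.6, 35.5 and 39.5 kb from the largest falls to the largest rises. By chromosome, among those with over 100 genes tested, the share that fell ran from 23.5% on chromosome 6 to 37.8% on chromosome 11.

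**Figure D5:**
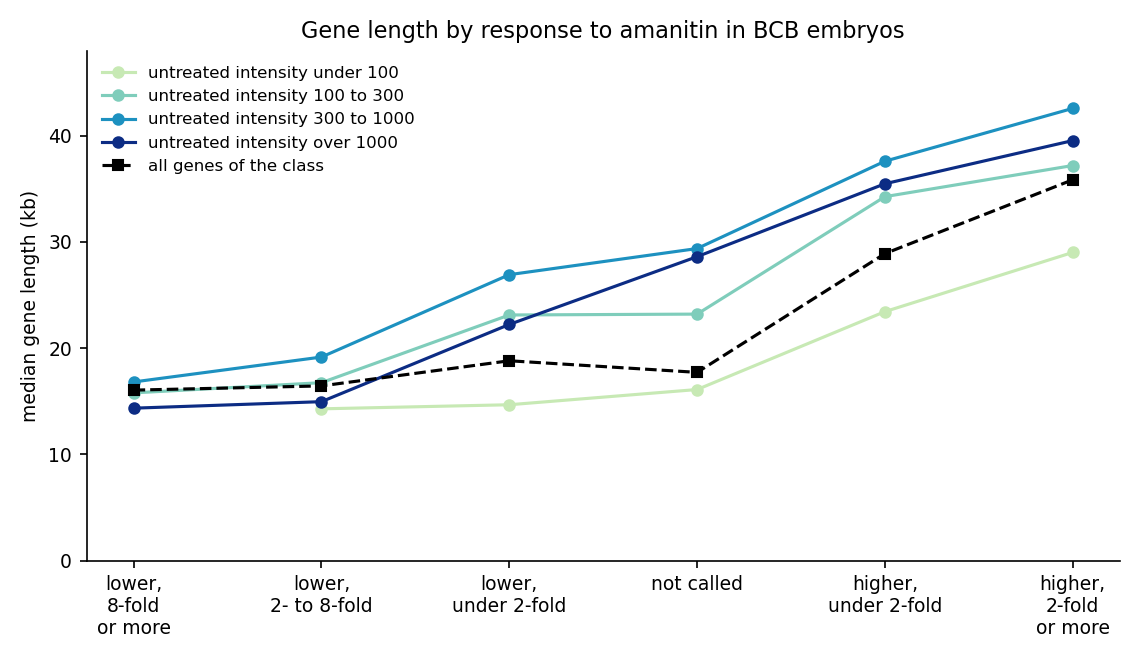
Median gene length in kb (vertical axis) by class of response to amanitin (horizontal axis), within 4 ranges of untreated mean intensity (coloured lines) and over all genes of a class (dashed). In each range of intensity the genes that rose 2-fold or more were longer than those that fell 2-fold or more, 39.5 against 14.4 and 14.97 kb at an intensity over 1000.

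The RefSeq table held a promoter, 250 bases before to 50 after a start, for 81.2% of the genes that fell at least 8-fold and 80.9% of those that rose at least 2-fold; it held one for 79.8% of all genes tested, just under the 80% at which a share over a set is taken as complete, so the shares of those 12190 genes are given only for the genes that matched. The 27025 promoters of the whole table include genes that were not tested, and each motif's share among them is given last. On either strand, CCGGAAG, a core read by ETS-type factors, was in 21.9% of promoters of the falling class, 12.7% of the rising class, 15.5% of the tested genes and 9.14% of the whole table, so the rising class lay below the tested genes and above the table. TAATCC, read by homeodomain factors of the Otx and Obox type, was in 9.59%, 4.41%, 5.73% and 7.15%. The first of these shares is for falls of at least 8-fold alone. Among falls of 2- to 8-fold TAATCC was in 5.15% of promoters, below the tested genes, and among smaller falls in 6.85%. GGGCGG was in 62.2%, 58.5%, 58.5% and 35.9%, the rising class having the share of the tested genes, and CCAAT in 41.8%, 35.7%, 38.4% and 38.02%. TATAAA, here read on the gene's strand only, lay about 20 to 40 bases before the start in 0.685%, 1.90%, 2.05% and 2.36% of them. The share of the falling class rests on 4 of 584 promoters. The median observed over expected CpG ratio was 0.810, 0.716, 0.718 and 0.389, so the rising class again matched the tested genes. These are shares in classes defined by the treatment effect, given as a description with no test. The median untreated intensity was 817 in the falling class, 170 in the rising class and 88.1 over the genes tested. The shares were not taken within ranges of intensity, so level and response are not separated in them.

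Setting the BCB response beside that of BBB embryos showed overlapping calls. The log2 changes of both kinds came from separate arrays. The calls came from the same limma fit, with a spread estimated over the arrays of both kinds. The overlap of calls is therefore not that of independent tests. Of the 4877 BCB falls, 4566 (93.6%) were also called lower in BBB embryos, which is 90.2% of the 5062 BBB falls; of the 6096 rises, 5141 (84.3%) were also called higher, 90.6% of the 5672 BBB rises. Across the 15274 genes the log2 changes of both kinds had a correlation of 0.977, a description over genes read on the same array type. The difference of the amanitin effects was tested directly as an interaction. It passed for 39 genes (0.255%), 29 with a lower (0.19%) and 10 with a higher (0.0655%) change in BCB; 1230 genes had an unadjusted p under 0.05. The count was 14 with a pseudocount of 1, 59 with a pseudocount of 64 and 17 on the poly-A scale, and 20, 23 and 23 without untreated BCB array 2, 3 or 4. Of the 29 genes, 26 had untreated BCB means more than 2 times those of untreated BBB embryos, and 26 fell in BCB. Pdgfrl, a relative of the PDGF receptor, was 262, 487, 466 and 375 on untreated BCB arrays and 12.4, 10.9, 14.5 and 9.2 on treated ones (−3.86), while in BBB embryos its means were 3.80 untreated and 11.03 treated; the interaction was −4.33 (SE 0.25, limma adjusted p = 2.15e-10). Adcy2, an adenylate cyclase, was 603, 917, 900.4 and 750.1 untreated and 84.3, 88.1, 73.7 and 74.3 treated in BCB, with BBB means of 20.6 and 48.5 (interaction −3.88). Sdhaf3, an assembly factor of succinate dehydrogenase, was 453 ± 85.3 and 66.6 ± 6.45 in BCB, with BBB means of 22.2 and 47.8 (interaction −3.23). Celf4, a splicing regulator, was 461 ± 84.7 and 65.3 ± 23.6 in BCB, with BBB means of 22.9 and 39.0 (interaction −3.04). All 4 genes fell in BCB embryos and had a higher treated than untreated mean in BBB embryos. These BBB log2 changes were small as deposited, 0.46 for Pdgfrl, 0.82 for Adcy2, 0.74 for Sdhaf3 and 0.46 for Celf4. That of Celf4 did not pass the test (limma adjusted p = 0.0887), and both BBB means of Pdgfrl lay under the constant of 16. The poly-A controls were also higher on every treated than on every untreated BBB array. Their mean log2 intensity was 7.69 to 8.07 on untreated and 9.398 to 9.72 on treated BBB arrays. The lowest treated value exceeded the highest untreated one by more than each of these 4 BBB rises. Scaling to the poly-A controls would therefore put all 4 below 0, so the opposite directions hold on the deposited scale only. In the other direction the largest interactions were those of Mbnl3 (1.59), Flvcr1 (1.27), Pcdh8 (1.09) and Parp8 (1.04). Each fell in both kinds of embryo, and further in BBB. Mbnl3, a splicing factor of the muscleblind family, was 293, 148, 166 and 195 untreated and 57.0, 45.9, 74.1 and 110.4 treated in BCB, against BBB means of 601 and 69.8.

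Most markers of cells other than the embryo were low. Of 21 cumulus and granulosa cell markers on the array, 1 had an untreated mean over 100. That gene, Amhr2, the receptor of anti-Müllerian hormone, was 2362, 2593, 2518 and 2167 untreated and 47.8, 68.1, 66.0 and 55.6 treated (−5.01, SE 0.14), and the summed intensity of the list was 2584 to 2919 untreated and 720.0 to 776 treated. The defining markers Fshr and Inha had untreated means of 9.30 and 15.5. Of 14 tested members 1 fell and 6 rose, 3 and 6 of the rises lying below 0 on the control scales (7.14% lower and 42.9% higher, beside 31.9% and 39.9% of all genes), the largest rise being that of Has2, hyaluronan synthase, from 12.6 to 59.3 (1.37, and −0.36 on the poly-A scale), whose untreated values all lay under the constant of 16. Of 21 sperm and spermatid transcripts 2 had an untreated mean over 100, and the sum was 1812 to 2083 untreated and 3108 to 3573 treated, most of it from Odf2, a protein of sperm tails and centrosomes, which rose from 1479.7 to 2905 (0.96, and −0.77 on the poly-A scale). The protamine genes Prm1 and Prm2 were at 21.6 and 14.2 untreated. Ldhc, the lactate dehydrogenase of testis, fell from 161 to 33.9 (−1.84). Among 16 tested, 3 fell and 6 rose, and 2 and 6 of the rises lay below 0 on the control scales (18.8% lower and 37.5% higher, beside 31.9% and 39.9% of all genes); Cabyr had the largest rise, from 21.1 to 70.1 (1.21, and −0.52 on the poly-A scale). The 12 markers of oviduct and blood cells summed to 224 to 268 untreated and 304.5 to 396 treated, with none over 100 untreated; Ovgp1, the oviduct glycoprotein, fell from 50.4 to 34.1 (−0.41) with overlapping groups and Muc16 rose from 33.0 to 109.6 (1.34, and −0.39 on the poly-A scale). Actb, β-actin, rose from 1488 to 2569 (0.78, but −0.011 on the scale of the hybridization controls and −0.95 on the poly-A scale), and the ratio of its 3′ to 5′ probe sets, a measure of RNA or labelling length, was 8.58 ± 0.750 untreated and 6.95 ± 0.704 treated (exact two-sided permutation p = 0.0286, n = 4 against 4, adjusted 0.0357). The same ratio for Gapdh was 12.99 ± 1.04 untreated and 11.87 ± 1.70 treated and did not pass (exact two-sided permutation p = 0.314, adjusted 0.349). The part of these differences in the results above was not tested.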

How the data were processed

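The values were linear intensities as deposited by the authors, 1 per probe set and array. The trimmed mean (2% off each tail) of every array was 150, so the values had been scaled before deposit, as read from the values themselves; the sources used here name neither software nor method. The analysis here took log2(intensity + 16), kept the 31953 of 45037 probe sets that reached an array's 40th percentile on 4 or more of 16 arrays, and fitted all 16 arrays with limma 3.58.1 in R 4.3.3 (lmFit, eBayes with an intensity trend, Benjamini-Hochberg adjustment over all probe sets tested). Each of 15274 genes is represented by the tested 1-symbol probe set of highest mean; the platform annotation gave 34945 probe sets 1 symbol, 932 several and 9160 none.

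Genes named were the 12 largest falls and rises without overlap, leaving out clone names and predicted genes, the extremes and the highest mean of each list, the 8 largest rises on the poly-A scale, the 4 largest interactions each way, the 4 widest spreads and some set controls (Polr2a, Actb, Zp3, Mos, Dnmt1). Members and lists were chosen with earlier results of these data known. The poly-A scale used 12 probe sets (Dap, Lys, Phe, Thr), since the Trp sets did not exceed 11.8; adding Trp and the older sets (27 in all) was chosen after seeing the data. The fit was tested on simulated data in which 200 of 31953 probe sets were changed. It recovered 75 of 100 changes of 1 on the log2 scale and 16 of 100 changes of 0.5, with 3 false calls. Far fewer probe sets were changed there than passed in the real data, so these rates need not hold here. Precision is limited by the number of arrays (median SE of a gene's log2 change 0.17). Python 3.11.15 drew counts and figures. Alternatives covered scaling, pseudocount, filter, probe sets, trend, weights, a replicate block and each array left out.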

Additional observations from a re-analysis of the deposited data

Results flagged for a closer look

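In 12 of 270 groups of 4 arrays, 1 array stood far from the other 3 by Dixon's test at its critical value, where chance gives about 1 in 20. The 12 are no more than that rate gives, so they are listed as a description only. Untreated array 4 was the array concerned for 7 of the 12. Its intensity for Timd2 was 2638.9 against 3187.5 to 3229.6 on the other 3 untreated arrays, for Selenos 3401.4 against 3647.8 to 3676.8, for Ncbp1 1504.1 against 1631.4 to 1651.8 and for Cmtm2a 22.0 against 40.3 to 43.2. It was higher than the others for Lef1 (217.1 against 157.6 to 161.0), Oas1f (201.8 against 138.0 to 145.6) and Atg5 (669.6 against 481.5 to 495.1). Among treated arrays, array 4 was low for Cyp2f2 (1556.8 against 1895.2 to 1930.1), array 1 low for Gtf3c2 (2117.7 against 2280.1 to 2285.1), array 3 high for Nlrp4a (3399.4 against 2855.0 to 2916.6) and array 2 high for Ldhc (52.8 against 26.4 to 29.1). The 75th percentile of intensity was 91.2 on treated array 1 against 88.2 to 88.7 on the other 3.

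The amanitin effect differed between BCB and BBB embryos by the interaction test for the genes below, given as the log2 change in BCB minus that in BBB. It was lower in BCB for Pdgfrl, at −4.33 (limma adjusted p = 2.15e-10), Adcy2, at −3.88 (limma adjusted p = 6.43e-11), Sdhaf3, at −3.23 (limma adjusted p = 3.45e-09), and Celf4, at −3.04 (limma adjusted p = 9.71e-06). It was higher in BCB for Mbnl3, at 1.59 (limma adjusted p = 0.0380), Flvcr1, at 1.27 (limma adjusted p = 0.0413), Pcdh8, at 1.09 (limma adjusted p = 0.0470), and Parp8, at 1.04 (limma adjusted p = 0.0291).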

How the results depend on the processing

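Falls kept their direction under most alternatives and rises depended on scaling. Both control scales lower the change of every gene by the same amount, so they could not turn a fall into a rise. Genes called higher and lower numbered 1879 and 9112 with arrays scaled to the hybridization controls, 100 and 13919 with the poly-A controls, and 182 and 13466 with the older and Trp sets added, against 6096 and 4877; these differ by construction in what is held constant. The share of calls that were higher was 55.6%, 17.1% and 0.713% under the deposited, hybridization and poly-A scales. Interaction calls numbered 39, and 17 with the poly-A controls, 18 with the older sets added, 14 with a pseudocount of 1 and 59 with one of 64, for which the cause was not tested. Leaving out each BCB array in turn gave 5684 to 6046 higher, 4723 to 4847 lower and 20 to 40 interaction calls. The numbers in the labels did not pair the arrays (correlation of deviations −0.029 to 0.027); a replicate block gave 6045, 4880 and 32. With arrays scaled to the poly-A controls the log2 change changed sign for Duxf3 (−0.72), Gata3 (−0.28), Yap1 (−1.14), Il6st (−0.51), Polr2c (−0.87), Ell (−0.53), Tcea1 (−1.17), Gtf3c2 (−1.57), Pes1 (−1.18), Rpl39 (−1.34), Rps2 (−1.46), Pfdn4 (−0.99), Vars (−0.68), Farsb (−0.92), Shmt2 (−0.31), Rrm2b (−0.65), Ipo9 (−0.0038), Xpo7 (−1.23), Thoc2 (−0.51), Edem1 (−0.90), Atg5 (−0.23), Slc2a1 (−0.35), Ldhb (−1.02), Prdx2 (−0.70), Nsdhl (−0.54), Hmgcs1 (−1.32), Rfc2 (−0.31), Dbf4 (−1.17), Pttg1 (−1.18), Nap1l1 (−0.65), Anp32b (−1.29), Suz12 (−0.99), Zp2 (−0.017), Bcl2l10 (−0.83), Nlrp4a (−0.43), Khdc1b (−1.15), Dcp1a (−0.30), Cnot7 (−0.96), Has2 (−0.36), Cabyr (−0.52), Odf2 (−0.77), Muc16 (−0.39), Cmtm2a (−0.47), Slc16a11 (−0.37), Actb (−0.95), Mos (−0.76) and Dnmt1 (−1.20). Under that scaling or summary the medians of growth factors and receptors (−1.53), cell cycle kinases, cyclins and checkpoint (−1.73), histone variants, chaperones and linker histones (−1.67), DNA and histone methylation enzymes (−1.65), zona, oocyte secreted and oocyte regulators (−0.997), subcortical maternal complex and Nlrp (−0.79), mRNA storage and polyadenylation (−1.68), cell adhesion, junctions and polarity (−1.68), cumulus and granulosa cell markers (−1.39), sperm and late spermatid transcripts (−1.62) and oviduct and blood cell markers (−1.66) did. With arrays scaled to the hybridization controls the log2 change changed sign for Yap1 (−0.20), Tcea1 (−0.23), Gtf3c2 (−0.63), Pes1 (−0.24), Rpl39 (−0.40), Rps2 (−0.52), Pfdn4 (−0.052), Xpo7 (−0.29), Ldhb (−0.075), Hmgcs1 (−0.38), Dbf4 (−0.23), Pttg1 (−0.24), Anp32b (−0.35), Suz12 (−0.054), Khdc1b (−0.21), Cnot7 (−0.024), Actb (−0.011) and Dnmt1 (−0.26). Under that scaling or summary the medians of growth factors and receptors (−0.59), cell cycle kinases, cyclins and checkpoint (−0.79), histone variants, chaperones and linker histones (−0.73), DNA and histone methylation enzymes (−0.71), zona, oocyte secreted and oocyte regulators (−0.056), mRNA storage and polyadenylation (−0.74), cell adhesion, junctions and polarity (−0.74), cumulus and granulosa cell markers (−0.45), sperm and late spermatid transcripts (−0.68) and oviduct and blood cell markers (−0.72) did. After quantile normalization the log2 change changed sign for Yap1 (−0.027), Gtf3c2 (−0.16), Rps2 (−0.28), Xpo7 (−0.074), Hmgcs1 (−0.16), Dbf4 (−0.0094), Pttg1 (−0.11), Anp32b (−0.040) and Khdc1b (−0.018). Under that scaling or summary the median of cell cycle kinases, cyclins and checkpoint (−0.064) did. With the tested probe sets of a gene averaged the log2 change changed sign for Tcea1 (−0.72), Xpo7 (−0.063), Pttg1 (−0.57) and Nap1l1 (−0.12). Under that scaling or summary the medians of DNA and histone methylation enzymes (−0.13) and mRNA storage and polyadenylation (−0.16) did. The cause of the sign changes with averaged probe sets was not tested. Signal near the floor limits how large a fall can be measured.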
